A study of Mus musculus with 6 samples.

Results

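The genes of the Hedgehog pathway followed here are Ptch1, Smo, Gli1, Gli2, Gli3, Hhip, Sufu, Gas1 and Boc, which were taken by gene symbol from the deposited expression table of mouse embryonic fibroblasts (MEFs) with and without Rnf40. All 9 were present, out of 29955 genes in the table. RNF40 is an E3 ubiquitin ligase which, together with RNF20, places the single ubiquitin on histone H2B (H2Bub1), and the study asked how its loss alters transcription. RNA was sequenced from 3 libraries of Rnf40+/+ and 3 libraries of Rnf40-/- MEFs, all at passage 3. The MEFs were derived at 13.5 days post coitum, and the inducible knockout cells carried loxP sites on both alleles of Rnf40, around exons 3 and 4, and a tamoxifen-inducible Cre (CreERT2) in the ubiquitously active Rosa26 locus. The gene was deleted by 5 days in 4-hydroxytamoxifen (4-OHT, 250 nM), and 3 more days of culture without 4-OHT followed. Whether the Rnf40+/+ cells carried the Cre or received 4-OHT for RNA-seq is not stated in the sources used here, so effects of the deletion, of Cre and of 4-OHT cannot be told apart. Nor is it stated that the libraries of a genotype came from separate embryos, and p-values therefore measure the spread between these libraries, which may be technical.

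In Hedgehog signaling, a secreted ligand binds the receptor Patched, and the inhibition that Patched exerts on the membrane protein Smoothened is thereby lifted at the primary cilium. Smoothened then releases the GLI transcription factors from Sufu and from proteolytic processing into repressors. In embryonic mesenchyme, from which MEFs are derived, the pathway patterns the limb, the skeleton and the gut wall, and Gli1, Ptch1 and Hhip are themselves induced when it is active.

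Expression is given as the normalized count, that is, the reads of a gene divided by the size factor of its library. The libraries held 17053436, 20781071 and 26344170 reads on genes in Rnf40+/+ MEFs and 18741606, 18115481 and 20495627 in Rnf40-/- MEFs. The limit of detection was set at 3 reads, which corresponds to 2.40 to 3.58 normalized counts depending on the library. As a check of the labels, Rnf40 itself had normalized counts of 1278, 1195 and 1096 in Rnf40+/+ libraries and of 439, 519 and 487 in Rnf40-/- libraries. Its log2 fold change was -1.30 (SE 0.09, limma, Benjamini-Hochberg adjusted p = 4.25e-07). Fold changes throughout compare Rnf40-/- with Rnf40+/+ MEFs on the scale of log2(normalized count + 1), which understates the change of genes with few reads.

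The Hedgehog pathway genes differed between the genotypes in both directions. Ptch1, Smo and Sufu were higher, Gas1, Boc and Gli2 were lower, and Gli3 and Hhip did not pass the test. Gli1 was nearly absent and had too few reads to be tested. Of the 8 genes tested, 3 were higher and 3 were lower at an adjusted p under 0.05 (limma, Benjamini-Hochberg over 16378 genes), whereas among all genes tested 47.4% passed in either direction, 23.3% being higher and 24.1% lower. Differences between the genotypes were thus common throughout the transcriptome, and the share of these genes that passed, 6 of 8, was not tested against that of all genes. In 5 of these 8 genes the libraries of the genotypes did not overlap, which held for 56.5% of all genes tested. The median log2 fold change was 0.04 over the 8 genes and -0.0035 over all genes tested. The differences were moderate in size, and by the criteria of the study (mean above 15, unadjusted p under 0.05 and absolute log2 fold change above 1) 0 were higher and 0 were lower by limma, since none of the 8 reached that fold change. At an unadjusted p under 0.05 alone, 6 of the 8 passed, and the quasi-likelihood test of edgeR and the Wald test of DESeq2 each called 3 higher and 3 lower.

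**Figure D1:**
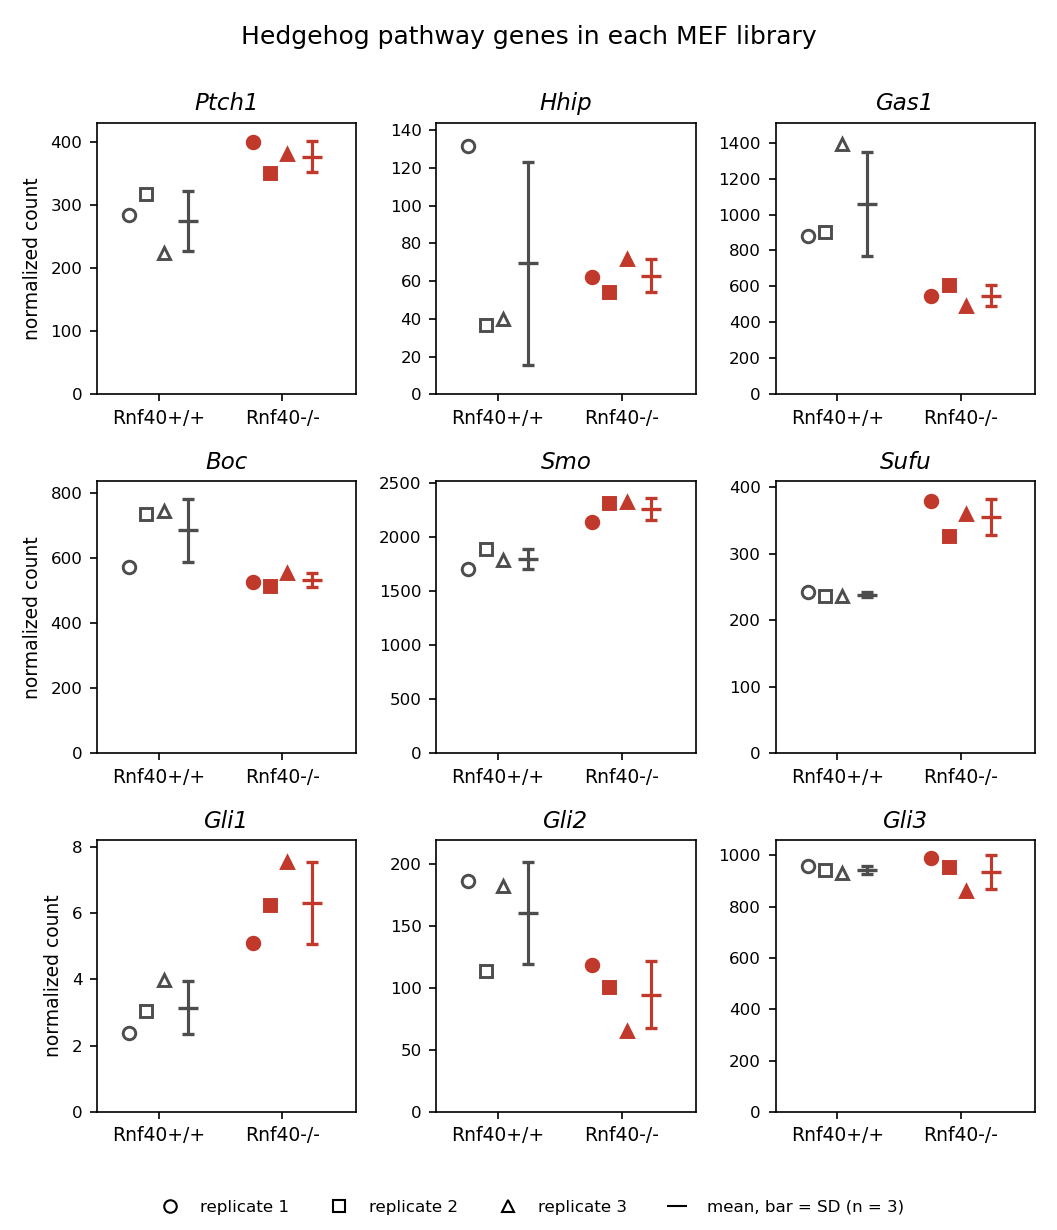
Normalized counts (y axes, linear, starting at 0) of the 9 Hedgehog pathway genes in 3 Rnf40+/+ libraries (open grey symbols) and 3 Rnf40-/- libraries (filled red symbols), with the mean and the SD (n = 3) to the right of each group. Ptch1, Smo and Sufu lie higher and Gas1 and Boc lower in every Rnf40-/- library, Gli1 reaches at most 7.55 normalized counts, and Hhip is at 131 in Rnf40+/+ replicate 1 alone.

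Ptch1 encodes the receptor that binds the ligands and holds Smoothened inactive. Its normalized counts were 284, 318 and 224 in Rnf40+/+ libraries and 399.7, 351 and 381 in Rnf40-/- libraries. All Rnf40-/- libraries were thus above all Rnf40+/+ libraries, with Rnf40+/+ replicate 3 the lowest. Means were 276 ± 47.5 (SD, n = 3) and 377 ± 24.7 (SD, n = 3), with a log2 fold change of 0.46 (SE 0.13, limma, Benjamini-Hochberg adjusted p = 0.0116). Without Rnf40-/- replicate 1 the difference no longer passed (log2 fold change 0.42, limma, Benjamini-Hochberg adjusted p = 0.0533), and over the 15 alternatives the adjusted p ranged from 0.00479 to 0.0533. Ptch1 is located on chromosome 13 (mm9, 63610261 to 63674474, minus strand).

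Gas1 and Boc encode co-receptors that sit on the cell surface, bind the ligand beside Patched and raise the response to it. The normalized counts of Gas1 were 883, 905 and 1394 in Rnf40+/+ libraries and 547, 608 and 493 in Rnf40-/- libraries. The genotypes did not overlap, and Rnf40+/+ replicate 3 stood well above its own group. Means were 1060.5 ± 289 and 549 ± 57.8 (SD, n = 3), the latter being 51.8% of the former. The log2 fold change of -0.92 (SE 0.15, limma, Benjamini-Hochberg adjusted p = 0.000381) was the largest fall among the 8 genes tested over all 6 libraries. With any library left out it stayed between -1.04 and -0.71, although without Rnf40-/- replicate 1 Gli2 fell slightly more (-0.95 as opposed to -0.92). For Boc the normalized counts were 572, 735 and 745 in Rnf40+/+ libraries and 526, 512 and 554 in Rnf40-/- libraries. Here too the genotypes did not overlap, though Rnf40+/+ replicate 1 came close to the Rnf40-/- libraries. Boc fell by 0.36 on the log2 scale (SE 0.11, limma, Benjamini-Hochberg adjusted p = 0.0154). This call depended on single libraries, as the adjusted p (limma, Benjamini-Hochberg) was 0.0708 without Rnf40+/+ replicate 2 (log2 fold change -0.30), 0.0513 without Rnf40-/- replicate 1 (-0.35) and 0.0601 without Rnf40-/- replicate 2 (-0.33), and over the 15 alternatives it ranged from 0.000816 to 0.0708.

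The third co-receptor of this kind, Cdon, had normalized counts of 302, 320 and 414 in Rnf40+/+ libraries and of 398, 413 and 343 in Rnf40-/- libraries. Its groups overlapped, and the log2 fold change of 0.16 did not pass (SE 0.13, limma, Benjamini-Hochberg adjusted p = 0.327). Without Rnf40+/+ replicate 3, the highest library of its group, it was 0.30 and passed (limma, Benjamini-Hochberg adjusted p = 0.043). Per kilobase of transcript, Gas1, Boc and Cdon added up to 468, 515 and 696 normalized counts in Rnf40+/+ libraries and to 358, 378 and 338 in Rnf40-/- libraries. The sum was lower in every Rnf40-/- library. Within it, the share of Gas1 was 63.6%, 59.3% and 67.7% in Rnf40+/+ and 51.6%, 54.4% and 49.2% in Rnf40-/- libraries, whereas the share of Cdon was 8.94%, 8.62% and 8.26% as opposed to 15.4%, 15.2% and 14.04%. These sums and shares are a description and carry no test. In mm9, Gas1 is located on chromosome 13 (60275766 to 60278726, minus strand), Boc on chromosome 16 (44485158 to 44559010, minus strand) and Cdon on chromosome 9 (35228713 to 35315236, plus strand).

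Gas1 fell together with genes that mark fibroblasts. Of 11 fibroblast markers, all tested, 9 were lower and 0 were higher in Rnf40-/- MEFs by the same test, whereas 24.1% of all genes tested were lower. Among the 9, Vim passed narrowly (limma, Benjamini-Hochberg adjusted p = 0.0483). It did not pass with a pseudocount of 10 (adjusted p = 0.0622) or without the filter on low reads (0.0862). None of the 11 was at 0, and Vim, which encodes an intermediate filament of mesenchymal cells, had the highest level per kilobase of transcript in both genotypes (means of 43468 and 36301 normalized counts per kilobase). Their normalized counts summed to 364941, 373739 and 423372 in Rnf40+/+ libraries and to 197342, 192080 and 205874 in Rnf40-/- libraries. Macrophage markers were present as well, with sums of 5763, 6153 and 9819 in Rnf40+/+ and of 3993, 3691 and 4096 in Rnf40-/- libraries. Lyz2, which encodes lysozyme, had the highest level per kilobase of these 9 genes in both genotypes. Of the 9, 2 were higher and 3 were lower, as opposed to 23.3% and 24.1% of all genes tested. Rnf40+/+ replicate 3, the library with the most Gas1, also had the highest sum. The part of fibroblast or macrophage content in the fall of Gas1 was not tested. In RNA from bulk cultures, fewer cells of a type and less RNA per cell cannot be told apart.

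Hhip encodes a membrane-bound protein that sequesters the ligands and is induced by the pathway. Its normalized counts were 131, 36.7 and 39.9 in Rnf40+/+ libraries and 62.2, 54.3 and 71.8 in Rnf40-/- libraries. Rnf40+/+ replicate 1 was thus 3.43 times the mean of the other two libraries of its group and above every Rnf40-/- library, while those other two were below every Rnf40-/- library. Over all 6 libraries the log2 fold change was 0.10 (SE 0.39, limma, Benjamini-Hochberg adjusted p = 0.846). Its sign was not stable, as it was -0.11 with edgeR, -0.12 with DESeq2, -0.22 without Rnf40+/+ replicate 2 and -0.16 without Rnf40+/+ replicate 3, and the ratio of the means was 0.905. Without Rnf40+/+ replicate 1 it was 0.69 (limma, Benjamini-Hochberg adjusted p = 0.032), and over the 15 alternatives the adjusted p ranged from 0.032 to 0.995. Whether Hhip differs between the genotypes therefore rests on this library.

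Rnf40+/+ replicate 1 also had the highest sums of skeletal muscle, epithelial, neural and glial (4735), and chondrocyte and osteoblast markers (2879), the last of cells that respond to Hedgehog ligands. Skeletal muscle markers summed to 4881 normalized counts in this library, 2032 and 1709 in the other two of its genotype and 496, 438 and 489 after deletion of Rnf40. Acta1, the skeletal actin, had the highest level of these 6 genes in both genotypes, per kilobase and in normalized counts. Myod1, which defines the muscle lineage, was at 0 in all 6 libraries, and Pax7 and Myf5 had at most 3 reads in any. The 7 epithelial markers summed to 109.9, 40.8 and 75.1 in Rnf40+/+ libraries and to 83.6, 69.9 and 59.5 in Rnf40-/- libraries. The keratin Krt18 had the highest mean per kilobase of them in both genotypes, but on this scale Krt8 was above it in Rnf40+/+ replicate 1 and Cldn4 in Rnf40-/- replicates 2 and 3. Among all genes tested, 23.3% were higher and 24.1% were lower. Of the 6 muscle markers 2 were tested, and these 2 were lower. Of the 7 epithelial markers 4 were tested, and only Cldn4 was higher, which passed the filter on low reads only through the Rnf40-/- libraries. In all, 395 genes were more than 2-fold above and 233 more than 2-fold below the mean of the other libraries of the group in Rnf40+/+ replicate 1. The same counts were 142 and 305 in Rnf40+/+ replicate 2 and 346 and 278 in Rnf40+/+ replicate 3, and 152 and 115, 104 and 152, and 83 and 187 in Rnf40-/- replicates 1, 2 and 3. Rnf40+/+ replicate 1 thus had the most genes above its group, but fewer genes below it than the other two libraries of its genotype. The part of other cells in the Hhip value of this library was not tested. Hhip is located on chromosome 8 (mm9, 82490014 to 82581905, minus strand).

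Downstream of the receptor, Smo and Sufu were both more highly expressed in Rnf40-/- MEFs. Smo encodes Smoothened, the membrane protein that carries the signal inward. Its normalized counts were 1709, 1891 and 1788 in Rnf40+/+ libraries and 2139, 2317 and 2324 in Rnf40-/- libraries. The genotypes did not overlap, and the libraries within each lay close together. Means were 1796 ± 91.1 and 2259.9 ± 105 (SD, n = 3), a log2 fold change of 0.33 (SE 0.07, limma, Benjamini-Hochberg adjusted p = 0.0017). Sufu encodes the main inhibitor of the GLI factors, which it retains in the cytoplasm. It had normalized counts of 242, 237 and 237 in Rnf40+/+ libraries and of 379, 327 and 361 in Rnf40-/- libraries. The Rnf40+/+ libraries were nearly identical, and every Rnf40-/- library was above them. The log2 fold change of 0.57 (SE 0.10, limma, Benjamini-Hochberg adjusted p = 0.000755) was the largest rise among the 8 genes tested over all 6 libraries, but not without Rnf40+/+ replicate 2, where Ptch1 was slightly above it, or without Rnf40+/+ replicate 1, where Hhip was. With any library left out, Smo stayed between 0.30 and 0.37 and Sufu between 0.52 and 0.63, and both remained past the threshold. An activating component of the pathway and an inhibitory one were therefore raised side by side. In mm9, Smo is located on chromosome 6 (29685694 to 29711365, plus strand) and Sufu on chromosome 19 (46471386 to 46563294, plus strand).

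The GLI transcription factors differed strongly in level. Gli3, which acts chiefly as a repressor when no ligand is present, was by far the most abundant and was at a similar level in both genotypes. Its normalized counts were 959, 943 and 929.5 in Rnf40+/+ libraries and 990.1, 954 and 861 in Rnf40-/- libraries. The groups overlapped, and the log2 fold change was -0.016 with a 95% confidence interval from -0.18 to 0.15 (limma, Benjamini-Hochberg adjusted p = 0.879). Gli2, the main activator of the response, had normalized counts of 186, 113 and 182 in Rnf40+/+ libraries and of 118, 100.2 and 65.1 in Rnf40-/- libraries. Rnf40+/+ replicate 2 lay below Rnf40-/- replicate 1, so that the groups overlapped by these libraries. Means were 161 ± 41.0 and 94.5 ± 27.0 (SD, n = 3), and Gli2 fell by 0.76 on the log2 scale (SE 0.24, limma, Benjamini-Hochberg adjusted p = 0.0215). It no longer passed without Rnf40+/+ replicate 1 (log2 fold change -0.64, limma, Benjamini-Hochberg adjusted p = 0.0586) or without Rnf40-/- replicate 3 (-0.52, adjusted p = 0.0982), and over the 15 alternatives the adjusted p ranged from 0.00616 to 0.0982. Per kilobase of transcript, the ratio of Gli2 to Gli3 was 0.239, 0.148 and 0.241 in Rnf40+/+ libraries and 0.147, 0.129 and 0.0931 in Rnf40-/- libraries. Rnf40+/+ replicate 2 and Rnf40-/- replicate 1 were almost equal in this ratio, which was not tested.

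Gli1, an activator that is transcribed when the pathway is on and serves as its usual readout, was barely detected. The libraries held 2, 3 and 5 reads in Rnf40+/+ and 5, 6 and 8 reads in Rnf40-/- MEFs, that is, normalized counts of 2.39, 3.06 and 3.99 and of 5.10, 6.26 and 7.55. Every Rnf40-/- library was above every Rnf40+/+ library, but most values were within a few reads of the limit of detection. Summed over the libraries, 10 reads in Rnf40+/+ and 19 in Rnf40-/- MEFs gave a ratio of 1.95 with an exact 95% interval from 0.861 to 4.68, which covers counting error only. A two-sided exact permutation test over the libraries gave p = 0.1, the smallest value that 3 against 3 libraries allow. Gli1 did not pass the filter on low reads. In a fit without this filter its log2 fold change was 0.82 (SE 0.47, limma, Benjamini-Hochberg adjusted p = 0.207), so that a difference was not detectable at this depth. An exon of Gli1 (mm9, chromosome 10, 126766945 to 126778645, minus strand) overlaps an exon of Arhgap9 on the opposite strand by 55 nucleotides. The library kit preserved strand, but it is not stated whether counting used it, so reads in this overlap cannot be assigned with certainty. Arhgap9 itself had between 8.16 and 18.4 normalized counts. In mm9, Gli2 is located on chromosome 1 (120730709 to 120950196, minus strand) and Gli3 on chromosome 13 (15555068 to 15821859, plus strand).

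Levels of different genes were compared per kilobase of the longest annotated coding transcript, as long transcripts collect more reads. In Rnf40+/+ MEFs, Smo came first with 475 ± 24.1 normalized counts per kilobase (SD, n = 3), followed by Gas1 with 358 ± 97.7, and the ranges of this pair overlapped. Boc followed with 154 ± 21.8 and Gli3 with 116 ± 1.80, each clear of its neighbors. Ptch1 with 64.0 ± 11.03 and Sufu with 52.8 ± 0.712 overlapped, as did Gli2 with 24.2 ± 6.18 and Hhip with 15.1 ± 11.7, whereas Gli1 was last with 0.859 ± 0.22. The order was the same in Rnf40-/- MEFs, but the spacing was not. Smo with 598 ± 27.7 was now clear of Gas1 with 186 ± 19.5, while Boc with 119 ± 4.79 overlapped with Gli3 at 114 ± 8.14. Ptch1 with 87.6 ± 5.74 again overlapped with Sufu at 78.6 ± 5.90, and Gli2 with 14.2 ± 4.07 overlapped with Hhip at 13.7 ± 1.91. Gli1 remained last with 1.72 ± 0.335 normalized counts per kilobase. The ratio of Ptch1 to Smo per kilobase, a receptor over the protein it inhibits, was 0.146, 0.148 and 0.11 in Rnf40+/+ libraries and 0.164, 0.133 and 0.144 in Rnf40-/- libraries, and these ranges overlapped. The lengths used, such as 4305 nucleotides for Ptch1, come from the annotation of mm9 and may differ from the transcripts on which the authors counted.

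The other genes of the pathway were described by lists of ligands, receptors, signal transducers, cilium genes and GLI targets. Together these lists held 105 genes apart from the 9 described above, of which 101 were tested. A total of 25 were higher and 22 were lower in Rnf40-/- MEFs, or 46.5% in either direction, close to the 47.4% of all genes tested. Of the higher genes, Dhh and Gpc5 passed the filter on low reads only through the Rnf40-/- libraries, so that their entry into the test was tied to their difference. Without genes that passed only through a single genotype the share was 45.5%, as opposed to 47.3% of all genes. By list, the shares were 71.4% among ligands and their release (7 genes tested) and 75% among receptors (4 genes tested). Without genes that passed only through a single genotype, each of these was 66.7%. The shares were 48.4% among signal transducers, 39.5% among cilium genes and 43.5% among GLI targets, with Ptch1 and Hhip counted among the targets. None of the shares was tested against that of all genes. Over these 101 genes the log2 fold change had a median of 0.0055.

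Among the ligands, Dhh was clearly higher in Rnf40-/- MEFs. Desert hedgehog is known from Schwann cells, endothelium and the gonad. Its normalized counts were 20.3, 9.18 and 6.39 in Rnf40+/+ libraries and 96.9, 79.3 and 97.3 in Rnf40-/- libraries. The groups were far apart, although the Rnf40+/+ libraries differed among themselves. The ratio of the means was 7.62 and the log2 fold change 2.97 (SE 0.36, limma, Benjamini-Hochberg adjusted p = 3.97e-05). As Dhh passed the filter only through the Rnf40-/- libraries, the fit without this filter is given as well (adjusted p = 8.17e-05, limma, Benjamini-Hochberg). Shh, the ligand of the limb and the neural tube, had normalized counts of 49.0, 51.0 and 91.8 in Rnf40+/+ libraries and of 51.0, 94.97 and 86.9 in Rnf40-/- libraries. Each genotype held both low and high libraries, and the log2 fold change of 0.29 did not pass (SE 0.29, limma, Benjamini-Hochberg adjusted p = 0.445). Ihh, the ligand of the growth plate, had 0, 2 and 3 reads in Rnf40+/+ and 5, 4 and 3 reads in Rnf40-/- libraries. It was too low to be tested, and the ratio of 2.46 had an exact 95% interval from 0.806 to 8.91 (counting error only).

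Markers of endothelial cells moved in the same direction as Dhh in part. Pecam1, an adhesion protein of endothelium, had normalized counts of 4.78, 4.08 and 2.40 in Rnf40+/+ libraries and of 28.6, 35.5 and 18.9 in Rnf40-/- libraries. Cdh5, the cadherin of endothelial junctions, had 2.39, 5.10 and 0.799 as opposed to 31.6, 39.7 and 23.6. These markers were therefore near the limit of detection in Rnf40+/+ MEFs and low, but clearly present, in Rnf40-/- MEFs. Both passed the filter on low reads only through the Rnf40-/- libraries. Of the other 3 endothelial markers tested, out of 6 in the list, 1 was higher and 1 was lower. Among all genes tested the shares were 23.3% and 24.1%. The lower gene, Emcn, had the highest mean per kilobase in both genotypes (48.8 and 21.4 normalized counts per kilobase), though Kdr was above it in Rnf40-/- replicate 2. The list summed to 282, 209 and 146 in Rnf40+/+ and to 234, 333 and 248 in Rnf40-/- libraries, and these sums overlapped. Of 7 neural and glial markers 4 were tested, with 0 higher and 1 lower, and the list summed to 4735, 3891 and 3307 in Rnf40+/+ and to 2342, 2319 and 2683 in Rnf40-/- libraries. Tubb3, a neuronal tubulin, had the highest level of them per kilobase in both genotypes, the lower gene was Nes, an intermediate filament of progenitor cells (log2 fold change -1.11, limma, Benjamini-Hochberg adjusted p = 6.54e-06), and Gfap had at most 3 reads in any library. Sox10, the marker of Schwann cells and their precursors, had normalized counts of 34.6, 22.4 and 24.8 in Rnf40+/+ and of 36.7, 41.7 and 40.6 in Rnf40-/- libraries, and although the groups did not overlap the difference did not pass (log2 fold change 0.55, SE 0.27, limma, Benjamini-Hochberg adjusted p = 0.112). The part of endothelial or glial cells in the rise of Dhh was not tested.

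**Figure D2:**
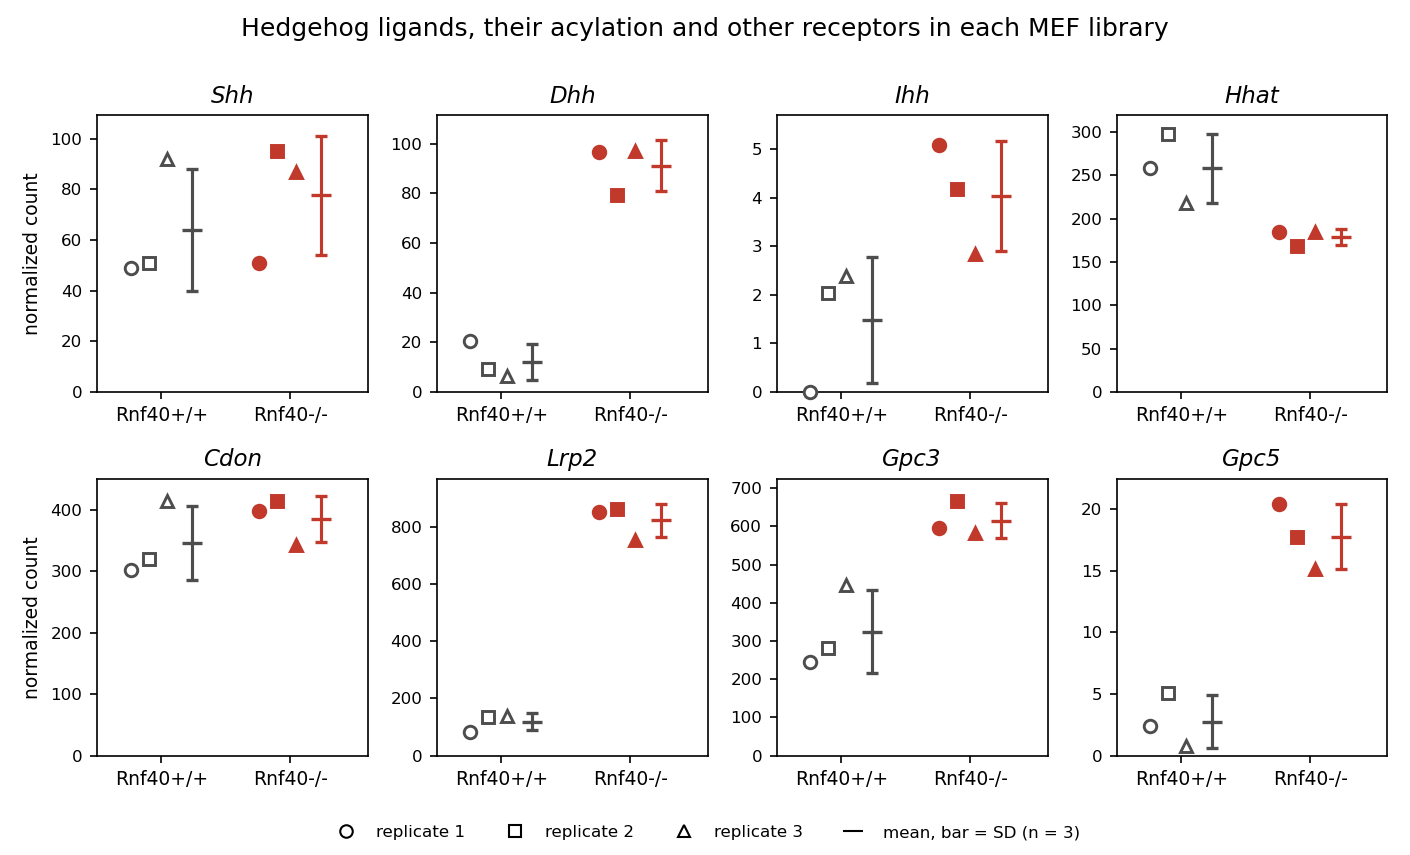
Normalized counts (y axes, linear, starting at 0) of Hedgehog ligands, the ligand acyltransferase Hhat and further receptors in 3 Rnf40+/+ libraries (open grey symbols) and 3 Rnf40-/- libraries (filled red symbols), with the mean and the SD (n = 3, bars stopped at 0) to the right of each group. Dhh, Lrp2, Gpc3 and Gpc5 lie higher and Hhat lower in every Rnf40-/- library, Shh and Cdon overlap, and Ihh stays near the limit of detection.

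Ligands need to be acylated and released before they can act. Of 9 genes for ligands, their acylation and their release, 7 were tested, with 4 higher, Dhh among them, and 1 lower. This was 71.4% in either direction and 57.1% higher, as opposed to 47.4% and 23.3% of all genes tested. Without Dhh, which passed the filter only through the Rnf40-/- libraries, 66.7% passed in either direction. Of the 6 genes left, 3 were higher, as opposed to 3405 of the 15236 genes whose entry did not rest on a single genotype. The difference from all genes was not tested. Hhat, the acyltransferase, had normalized counts of 258, 298 and 218 in Rnf40+/+ libraries and of 185, 168 and 184 in Rnf40-/- libraries. It was lower in every Rnf40-/- library, with a log2 fold change of -0.52 (SE 0.13, limma, Benjamini-Hochberg adjusted p = 0.00769). The genes for release that passed were all higher. Disp1, which exports the lipid-modified ligand, rose by 0.28 on the log2 scale (SE 0.09, limma, Benjamini-Hochberg adjusted p = 0.0176). Scube1 rose by 1.11 and Scube3 by 1.29 (SE 0.30 and 0.34, limma, Benjamini-Hochberg adjusted p = 0.00891 and 0.00749), from means of 23.6 and 16.2 normalized counts in Rnf40+/+ MEFs.

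Receptors outside the 9 genes were Cdon, described above, Lrp2, Gpc3 and Gpc5. Of these 4 genes, Lrp2, Gpc3 and Gpc5 were higher by the test, or 75%, as opposed to 47.4% of all genes tested in either direction. Without Gpc5, which passed the filter on low reads only through the Rnf40-/- libraries, the share was 66.7%. Lrp2, the endocytic receptor megalin that binds Shh, had normalized counts of 83.6, 135 and 138 in Rnf40+/+ libraries and of 850.4, 861 and 754 in Rnf40-/- libraries. The groups did not come near each other, and the log2 fold change was 2.81 (SE 0.17, limma, Benjamini-Hochberg adjusted p = 1.52e-07). Gpc3, a glypican that competes with Patched for the ligand, had 246, 280.4 and 447 as opposed to 594, 667 and 583 (log2 fold change 0.97, SE 0.18, limma, Benjamini-Hochberg adjusted p = 0.000787). Gpc5, a glypican that promotes ligand binding, was low, with at most 5.10 normalized counts in Rnf40+/+ and between 15.1 and 20.4 in Rnf40-/- libraries. It passed the filter only through the latter and was not tested with a mean above 15. Without a filter its log2 fold change was 2.48 (limma, Benjamini-Hochberg adjusted p = 0.00276), but with a pseudocount of 10 it was 1.13, so that its size depends on the pseudocount.

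The proteins that act between Smoothened and the GLI factors were represented by 31 genes, all tested. A total of 9 were higher and 6 were lower, with a median log2 fold change of 0.10. Among those that passed, Gpr161, a ciliary receptor that keeps the pathway off through cAMP, rose most, from a mean of 80.6 to 127 normalized counts (log2 fold change 0.65, SE 0.17, limma, Benjamini-Hochberg adjusted p = 0.00654). Zic1, a zinc finger protein related to the GLI factors, followed with 0.55 (limma, Benjamini-Hochberg adjusted p = 0.00374). The ubiquitin ligase components Skp1a and Cul3 and the kinase Gsk3b, all used in GLI processing, had log2 fold changes of 0.49, 0.45 and 0.43. Among the genes that were lower, Arrb2, a β-arrestin that helps Smoothened reach the cilium, changed most, with a log2 fold change of -0.86 (SE 0.19, limma, Benjamini-Hochberg adjusted p = 0.00252). The casein kinase genes Csnk1g1, Csnk1e and Csnk1a1 followed with -0.52, -0.50 and -0.35, and Prkaca, the catalytic subunit of the kinase that primes GLI proteins for processing, with -0.33. Most of these proteins also serve other pathways.

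Of 38 genes for the primary cilium, all tested, 7 were higher and 8 were lower, with a median log2 fold change of 0.0036. Ift172, a subunit of the intraflagellar transport machinery, had normalized counts of 473, 428 and 496 in Rnf40+/+ libraries and of 209, 256 and 215 in Rnf40-/- libraries. Every Rnf40-/- library was far below the Rnf40+/+ libraries (log2 fold change -1.04, SE 0.11, limma, Benjamini-Hochberg adjusted p = 1.48e-05). B9d2, Cc2d2a and B9d1, which encode parts of the transition zone at the base of the cilium, had log2 fold changes of -0.59, -0.58 and -0.39, and the phosphatase Inpp5e one of -0.31. In contrast, Tctn1 and Rpgrip1l, also of the transition zone, were higher. Mks1, Tctn2 and Cep290 of the same list did not pass, with log2 fold changes of 0.20, -0.12 and -0.18. Tctn1 had normalized counts of 119, 105 and 87.8 in Rnf40+/+ libraries and of 229, 244 and 226 in Rnf40-/- libraries, all of the latter being above all of the former (log2 fold change 1.17, SE 0.15, limma, Benjamini-Hochberg adjusted p = 4.81e-05). Rpgrip1l had a log2 fold change of 0.90, followed by Ift122 with 0.49, the motor gene Kif3b with 0.43 and Cep164 with 0.40. The number of cilium genes that were lower varied with the processing. It was 3 with upper-quartile scaling, 5 with DESeq2, 5 when any 1 of the Rnf40+/+ libraries or Rnf40-/- replicate 3 was left out, and 3 without Rnf40-/- replicate 1.

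Finally, 26 genes often given as targets of the GLI factors were considered, among them Ptch1, Hhip and Gli1. Of these, 23 were tested, and Gli1, Nkx2-2 and Foxa2 had too few reads. A total of 3 were higher and 7 were lower, or 43.5% in either direction, near the 47.4% of all genes tested, with a median log2 fold change of -0.23, as opposed to -0.0035 over all genes tested. Apart from Ptch1, the higher genes were Cdk6 with a log2 fold change of 0.55 (SE 0.18, limma, Benjamini-Hochberg adjusted p = 0.0241) and Spp1, which encodes osteopontin, also with 0.55 (SE 0.09, limma, Benjamini-Hochberg adjusted p = 0.000366). The genes that were lower were led by Snai1, a repressor of epithelial genes, with normalized counts of 727, 769.9 and 942 in Rnf40+/+ libraries and of 389.5, 428 and 449 in Rnf40-/- libraries. Every Rnf40-/- library was below every Rnf40+/+ library (log2 fold change -0.94, SE 0.11, limma, Benjamini-Hochberg adjusted p = 2.13e-05). Foxm1, Ccnd1 and Ccne1, with log2 fold changes of -0.78, -0.71 and -0.69, drive the cell cycle in many settings outside of Hedgehog signaling, and Igfbp6, which binds insulin-like growth factors, had a log2 fold change of -0.69. Without Rnf40+/+ replicate 1 the number that was higher was 5 and without Rnf40-/- replicate 1 it was 1, and without Rnf40+/+ replicate 3 the number that was lower was 11.

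**Figure D3:**
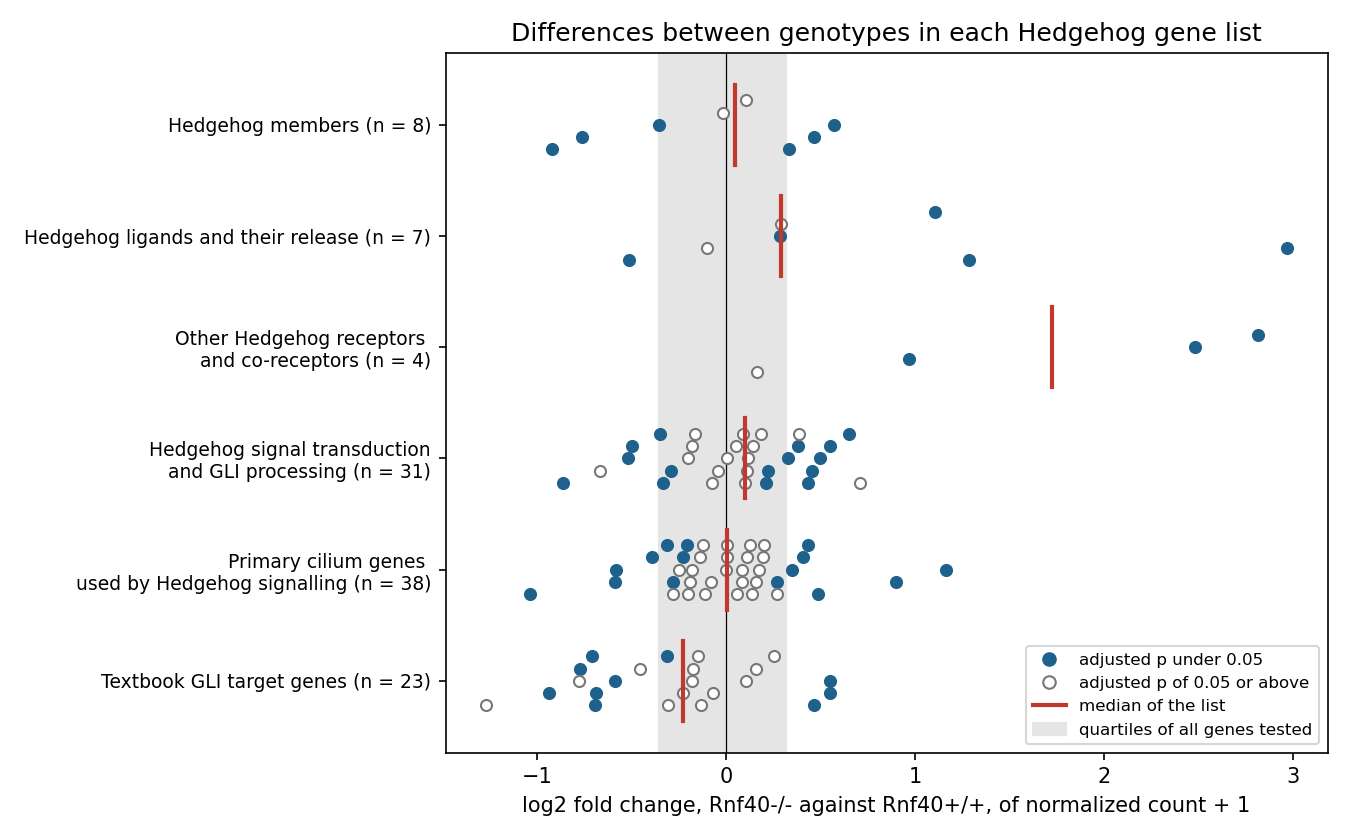
Log2 fold change (x axis, Rnf40-/- against Rnf40+/+) of each gene tested in 6 lists of Hedgehog genes, filled where the adjusted p from limma was under 0.05, with the median of each list (red line) and the quartiles of all genes tested (grey band, -0.35 to 0.32). Heights within a row only separate the points. The medians of the 8 genes described above, of the cilium genes and of the signal transducers lie near 0, and that of the GLI targets at -0.23. The points of Dhh at 2.97 and Gpc5 at 2.48 are of genes that passed the filter only through the Rnf40-/- libraries, and the median of the receptors, a list of 4, shifts with Gpc5.

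Among the remaining lineage markers were 7 genes of chondrocytes and osteoblasts. Of the 5 tested 4 were lower in Rnf40-/- MEFs and 0 were higher, as opposed to 24.1% and 23.3% of all genes tested. Sp7, among the lower genes, passed the filter only through the Rnf40+/+ libraries. All 7 summed to 2879, 2531 and 2296 in Rnf40+/+ and to 1505, 1694 and 1572 in Rnf40-/- libraries. Per kilobase, Col2a1, the collagen of cartilage, had the highest mean in Rnf40+/+ MEFs (207 normalized counts per kilobase), whereas Col10a1, the collagen of hypertrophic cartilage, which did not pass, had the highest in Rnf40-/- MEFs (145). The 5 adipocyte genes summed to 407, 509 and 705 in Rnf40+/+ and to 655, 642 and 582 in Rnf40-/- libraries. Adipoq was at 0 in all libraries and Plin1 had at most 3 reads in any. Of the 3 tested 1 was higher, as opposed to 23.3% of all genes tested. This gene, the fatty acid binding protein Fabp4, had the highest mean per kilobase in Rnf40-/- MEFs, and the lipase Lpl had it in Rnf40+/+ MEFs. Their part in the values of the Hedgehog genes was not tested.

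To see which genes most resembled the readouts of the pathway, log2(normalized count + 1) was compared over the 6 libraries. The profile of Ptch1 was nearest to that of Irs1, an adaptor of the insulin receptor (Pearson r = 0.993, Spearman rho = 1), followed by Epb4.1 (r = 0.991, rho = 1) and Rbm16 (r = 0.991, rho = 1). For Gli1 the nearest were Gyg, which primes glycogen synthesis (r = 0.993, rho = 1), Zfp598 (r = 0.992, rho = 1) and Sult4a1 (r = 0.991, rho = 1). Such likeness was common, as 205 genes had an r above 0.95 with Ptch1 and 220 with Gli1. These coefficients cover the difference between the genotypes as well as the spread within them, the 6 libraries form 2 groups, and the values of Gli1 rest on few reads, so they serve as a description only.

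Promoter sequences from RefSeq (GRCm38.p6) were matched by symbol for 7 of the 9 genes, and those of Gli1 and Boc were not used here. The GLI binding motif GACCACCCA, searched on both strands in the window from 250 bases before to 50 bases after the RefSeq start used, was found in 0 of these 7 and in 83 of 32851 promoters overall (0.253%). The absence of these letters from the window says nothing about binding elsewhere. The promoters differed in their number of CG pairs, the dinucleotide that is dense in CpG islands. Among the 250 bases before the start, Ptch1 had 41 such pairs, Gli3 34, Hhip 28, Gli2 22, Smo 15, Gas1 10 and Sufu 8, whereas the median of all promoters was 6 and the upper quartile 16. All 7 were thus above the median, and the genes that rose (41, 15 and 8) and those that fell (22 and 10) spanned overlapping ranges. Ptch1, Gli3 and Gas1 also belong to the genes with broad H3K4me3 in the lists that accompany the study, which were made from chromatin of the same kind of cells, and of these Ptch1 was higher, Gli3 did not pass and Gas1 was lower. Of the 9 genes, Gas1 is also listed there with significantly decreased H3K27me3, and Boc among random control genes. The promoters of Ptch1 (chr13:63565736-63565985, minus strand) and Gas1 (chr13:60177536-60177785, minus strand), the receptor that rose and the co-receptor that fell, are printed as examples with more and with fewer CG pairs, which are in capitals.
Ptch1: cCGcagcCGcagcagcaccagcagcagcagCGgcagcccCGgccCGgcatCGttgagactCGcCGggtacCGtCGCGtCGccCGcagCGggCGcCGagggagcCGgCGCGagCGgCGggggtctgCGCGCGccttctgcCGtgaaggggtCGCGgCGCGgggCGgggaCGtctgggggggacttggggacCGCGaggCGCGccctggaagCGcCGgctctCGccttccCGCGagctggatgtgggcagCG
Gas1: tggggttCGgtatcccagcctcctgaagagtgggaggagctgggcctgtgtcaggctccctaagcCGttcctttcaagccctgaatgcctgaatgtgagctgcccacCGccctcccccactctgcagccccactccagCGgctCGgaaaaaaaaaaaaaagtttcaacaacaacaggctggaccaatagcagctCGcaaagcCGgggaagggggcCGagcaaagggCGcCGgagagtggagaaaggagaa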

How the data were processed

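RNA-seq libraries of 3 Rnf40+/+ and 3 Rnf40-/- MEF samples were grouped by their labels. The authors mapped reads to the mouse transcriptome (mm9) and deposited a signal per gene, reads divided by 1 DESeq size factor per library. The submitters' processing notes name Bowtie2 2.1.0 and DESeq 1.14.0. Reads were recovered from the step between low values, and 100% of positive values came out whole (tolerance 0.1 read). Genes with few reads were removed by filterByExpr (edgeR, version 4.0.16), and log2(value + 1) was tested with limma (version 3.58.1, eBayes with trend, two-sided, Benjamini-Hochberg over 16378 genes, threshold 0.05) in R (version 4.3.3), which called 3809 genes higher and 3955 lower. On recovered reads, edgeR's quasi-likelihood test (TMM) called 3857 and 3940, and DESeq2 (version 1.42.0) 3563 and 3726. Other alternatives were pseudocounts of 0.1 and 10, no filter, a mean above 15, DESeq2 size factors, upper-quartile scaling, a replicate block, each library left out and the study's criteria. Tests were tried on simulated reads. No libraries were duplicates (chi-square per gene at least 5.04). Intervals for low reads are exact binomial (scipy version 1.17.1, Python version 3.11.15).

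The Hedgehog genes and all lists were chosen with earlier results of these data known. Named were, from each list, genes with an adjusted p under 0.05 (at most the 5 largest changes per direction), the ligands and Cdon, the 3 genes most like Ptch1 and Gli1, and cell type markers near 0 or most abundant per kilobase in a genotype. Pecam1, Cdh5, Sox10, Sp7, Krt8, Cldn4, Kdr, Nes and Arhgap9 were named after their values were seen. Mks1, Tctn2 and Cep290, which did not pass, were named outside this rule. A gene of the lists is not reported here. ChIP-seq data were not analysed here.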

Additional observations from a re-analysis of the deposited data

How the results depend on the processing

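The 6 Hedgehog genes that passed also did so with every other pseudocount, filter, scaling and test, and with the replicate block, while the study's criteria, which require a larger fold change, gave 0 higher and 0 lower Hedgehog genes and 696 higher and 934 lower genes overall. With 1 library left out, between 2 and 4 Hedgehog genes were higher and between 2 and 3 were lower. The calls lost in this way were those of Ptch1, Gli2 and Boc, and Hhip was gained. None of the 6 changed sign. The other two did, Hhip with edgeR, with DESeq2 and without Rnf40+/+ replicate 2 or 3, and Gli3 with upper-quartile scaling and without Rnf40-/- replicate 3. Among the other pathway genes named, leaving out 1 library could also remove the calls of Disp1, Scube3, Cdk6, Inpp5e, B9d1 and B9d2 and add that of Cdon, and B9d1 and B9d2 also failed to pass without the filter and with upper-quartile scaling. The number of cilium genes that were lower was 3 with upper-quartile scaling, 5 with the Wald test of DESeq2 and from 3 to 6 with 1 library left out. For GLI targets, leaving out 1 library gave from 1 to 5 higher and from 6 to 11 lower genes. The causes were not tested.

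Same-numbered libraries did not deviate together (correlations 0.0118, 0.0174 and 0.0212), and correlations of differently numbered libraries ran from -0.0531 to 0.0371. These values gave no sign that the replicate numbers pair the libraries. With 3 libraries per genotype, they cannot exclude a shared embryo or batch. With the replicate block 4021 genes were higher and 4196 lower, and the Hedgehog genes remained at 3 higher and 3 lower.

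With 3 libraries per genotype, and few reads for Gli1 and Ihh, differences in these genes were not detectable, and whether Ptch1, Gli2, Boc and Hhip passed depended on single libraries. Culture, 4-OHT and genotype cannot be told apart.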
